A study of Mus musculus with 151 samples.

Results

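The insulin and insulin-like growth factor (IGF) signalling genes described here were 10 genes chosen by name: the ligand gene Igf1, the receptor genes Igf1r and Insr, the adaptor genes Irs1 and Irs2, the binding protein genes Igfbp2, Igfbp4, Igfbp5 and Igfbp7, and the protease gene Pappa. All 10 were found by symbol among the 35976 gene names of each of 7 RNA-seq count tables. The offspring were female mice whose mothers were CF-1 and whose fathers were B6/SJL, conceived by mating (Natural) or by in vitro fertilization (IVF) of eggs from hormonally superovulated CF-1 females, with culture of the embryos to blastocysts and transfer to pseudopregnant recipients. Whole fetal ovaries came from 4 Natural and 6 IVF fetuses at E18.5 (embryonic day), and parts of adult ovaries came from 4 Natural and 5 IVF females at 12 weeks and from 5 of each at 39 weeks. The adults of both groups had been delivered by caesarean section and raised by CF-1 foster mothers. Low-input libraries held pooled primordial germ cells (PGCs, the fetal precursors of oocytes) at E13.5 (4 Natural, 5 IVF), single oocytes at 12 weeks (36 Natural, 40 IVF) and 39 weeks (9 Natural, 10 IVF), and pooled cumulus cells (the follicle cells that surround the oocyte) at 12 weeks (5 of each), the oocytes and cumulus cells after superovulation of the offspring themselves.

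IGF1 and insulin bind receptor tyrosine kinases, encoded by Igf1r and Insr, and the occupied receptors act through the adaptor proteins IRS1 and IRS2 on the PI3K, AKT and mTOR pathway. IGF binding proteins hold IGFs outside the cell, and pappalysin, the product of Pappa, cuts some of them, IGFBP4 and IGFBP5 among them, and so frees the ligand. In the mouse ovary Igf1 is known as a gene of granulosa cells that amplifies the action of follicle-stimulating hormone, and IGFBP7 differs from the other binding proteins in its low affinity for IGFs and is known from blood vessels.

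Some labels and libraries limited what could be compared. For IVF pregnancies the methods give the day of fetal collection as E18.5 in one place and a day later in another, so fetal age and conception cannot be told apart at E18.5. A Natural ovary counted with the 39-week group (replicate 5) carried both 39 and 40 weeks in its labels. Natural cumulus replicate 5 had a library name, 126_2, that it shared with a set of IVF oocytes, and cumulus results were computed with and without it. Total counts ran from 2839022 (12-week IVF replicate 4) to 43363799 per ovary, from 4364495 to 8675189 per PGC library, from 19624072 to 58259515 per set of 12-week oocytes, and from 2532824 to 6345249 per cumulus library. Summed markers of the oviduct and epithelium (Ovgp1, Epcam, Foxj1, Krt7, Krt18 and Krt19) reached 8773 CPM (read counts scaled to a common library total) in 39-week IVF replicate 1 against 32.3 to 214 CPM in the other 39-week ovaries. At 12 weeks the same sum lay between 3487 and 7637 CPM in Natural and between 48.0 and 3079 CPM in IVF ovaries. PGC markers summed to 2828 to 8239 CPM in PGC libraries, oocyte markers to 14125 to 29000.0 CPM in oocyte sets, and markers of expanding cumulus to 339.6 to 920.3 CPM in cumulus libraries. The same cumulus markers summed to 9.30 to 35.2 CPM in Natural and 15.7 to 40.2 CPM in IVF oocyte sets. Oocyte markers summed to 0.856 to 21.8 CPM in Natural and 0.646 to 30.8 CPM in IVF cumulus libraries. The part of cumulus RNA in the member levels of oocytes was not tested. In these bulk samples a loss of cells of a type cannot be told from less RNA per cell.

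The levels of these genes were highest in whole ovaries, and there the binding protein genes led. Ovary libraries were made by another protocol than those of the isolated cells. Per kilobase of exon, mean Igfbp5 in Natural E18.5 ovaries was 479 CPM, followed by Igfbp4 at 193, Igfbp2 at 127 and Igfbp7 at 107, while Igf1 was at 41.8 and the receptor genes Igf1r and Insr were at 18.1 and 6.55. In Natural 12-week ovaries the order had changed, with Igfbp7 first at 373 CPM per kilobase, Igfbp4 at 124 and Igfbp5 at 102. At 39 weeks Natural ovaries again had Igfbp7 (455) and Igfbp4 (242) in front. Pappa was the lowest of the 10 at each ovary age, at 2.38, 0.614 and 1.22 CPM per kilobase in Natural ovaries. Natural cumulus cells were led by Igfbp4 (37.9) and Igfbp7 (24.8), Natural PGCs by Igfbp2 (5.22), and no gene reached 1 CPM per kilobase in 12-week oocytes of either group.

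**Figure D1:**
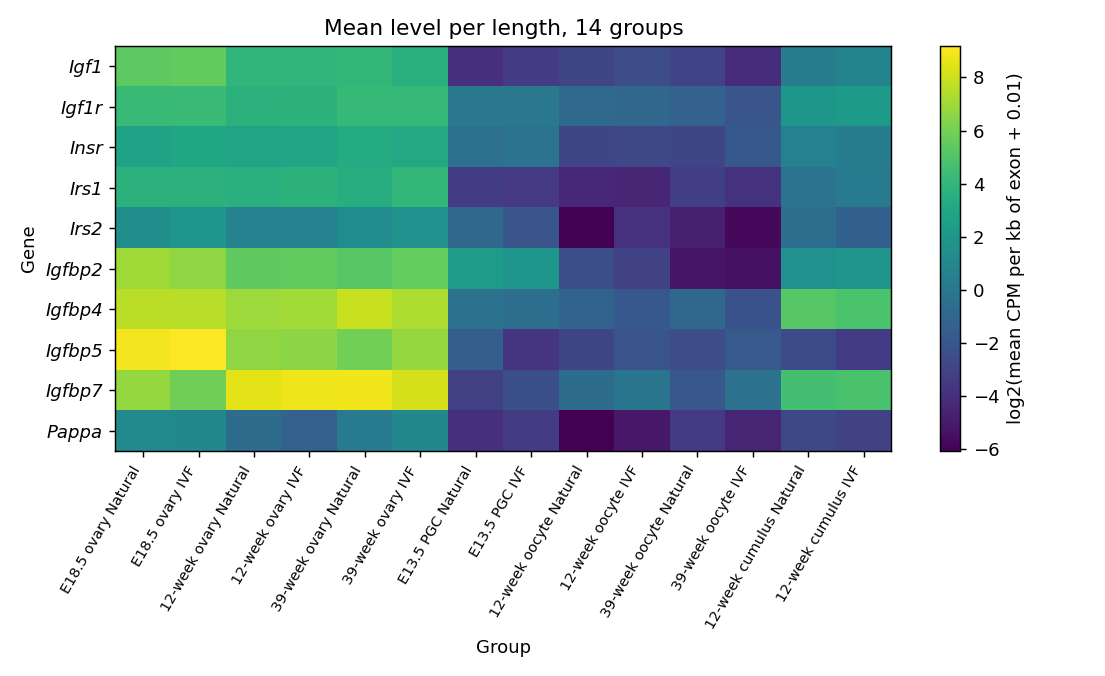
Mean level of each of the 10 genes (rows) in the 14 groups (columns), as log2 of the mean CPM per kilobase of exon plus 0.01 (colour scale). The ovary columns are lightest, with the brightest cells at Igfbp5 in E18.5 ovaries (479 in Natural) and at Igfbp7 in adult ovaries (373 in Natural at 12 weeks), and the oocyte columns are darkest.

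Ranked over the 14 group means in CPM, Igf1, Igf1r, Igfbp5 and Irs2 were highest in E18.5 IVF ovaries, Igfbp2 and Pappa in E18.5 Natural ovaries, Insr, Igfbp4 and Igfbp7 in 39-week Natural ovaries and Irs1 in 39-week IVF ovaries. Most neighbours in these orders overlapped. For Igf1, both E18.5 groups (454 ± 64.5 CPM in IVF, SD, n = 6, and 414 ± 148 CPM in Natural, n = 4) lay above the 4 adult ovary groups without overlap with the next group, and the adult groups overlapped one another. For Igfbp7, the adult ovary groups were followed without overlap by E18.5 Natural (129 ± 23.6 CPM, n = 4) and then, again without overlap, by E18.5 IVF (70.3 ± 11.7 CPM, n = 6). Every one of the 10 genes had its 6 ovary groups above its PGC, oocyte and cumulus groups in mean level. Ovary libraries were made from bulk RNA and the others by a low-input protocol, and levels were scaled within each count table. Tissue and protocol therefore cannot be told apart in this order.

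The genes whose log2 group means ran most like those of each member were also described, by Pearson's r over the same 14 groups, which differ in tissue, age and depth. The closest were Amotl1 for Igf1 (0.996), Amotl2 for Igf1r (0.994), Tns1 for Insr (0.999), Bak1 for Irs1 (0.998), Zfp128 for Irs2 (0.990), Dazap1 for Igfbp2 (0.997), Ltbp3 for Igfbp4 (0.997), Col16a1 for Igfbp5 (0.997), Srpx2 for Igfbp7 (0.997) and Cyp26b1 for Pappa. The runners-up were Zfp579 for Igf1, App for Igf1r, Nlrx1 for Insr, Amhr2 for Irs1, Bace1 for Irs2, Arhgef25 for Igfbp2, Phldb1 for Igfbp4, Fam171a2 for Igfbp5 and Wnt2b for Pappa (0.971).

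Igfbp7 was lower in IVF than in Natural fetal ovaries and was the 1 member of 10 that passed the test at E18.5. The 4 Natural ovaries were at 119, 113, 121 and 164 CPM, and the 6 IVF ovaries were at 67.8, 67.8, 73.0, 66.8, 55.4 and 91.0 CPM. All IVF ovaries lay below all Natural ones, and Natural replicate 4 stood above its group. The log2 fold change was -0.88 (SE 0.14), beside a median of 0.07 over the 10 members, with an adjusted p of 0.0129 by edgeR's quasi-likelihood test over 16415 genes. Of all genes tested at this age 5.43% were called in either direction, 2.67% as higher and 2.75% as lower in IVF, and 8.61% had groups that did not overlap, as did 1 of the 10 members. Summed erythroid markers (5 hemoglobin and heme genes) lay between 597 and 1596 CPM in Natural and between 1595 and 4567 CPM in IVF, and 6 oocyte markers between 52.4 and 315 CPM in Natural and between 3.05 and 73.9 CPM in IVF. The 5 endothelial markers ranged in sum from 345 to 519 CPM in Natural and from 334 to 401 CPM in IVF. The part of these cell type differences in the Igfbp7 result was not tested.

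At 12 weeks Igfbp7 was at 409, 586, 364 and 443 CPM in Natural and at 529, 446, 647, 554 and 542 CPM in IVF ovaries. These ranges overlapped, and the log2 fold change of 0.27 (SE 0.15) did not pass the test (edgeR adjusted p = 0.442). At 39 weeks Natural ovaries were at 682, 503, 546, 518 and 500.3 CPM and IVF ovaries at 244, 449, 357, 418 and 319 CPM. All 5 IVF ovaries were again below all 5 Natural ones, which was the case for 5.13% of the 17186 genes tested at this age, but the log2 fold change of -0.62 (SE 0.17) had an edgeR adjusted p of 0.108. With DESeq2 this difference passed, with an adjusted p of 0.0156. Without IVF replicate 1, the ovary with high oviduct markers, it was -0.51 (edgeR adjusted p = 0.0917).

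**Figure D2:**
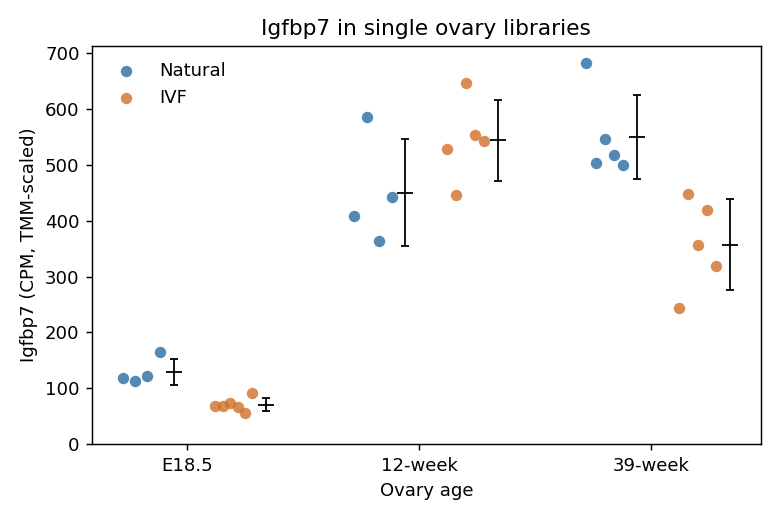
Igfbp7 level (CPM, TMM-scaled, vertical axis from 0) in each ovary at the fetal and both adult ages, with Natural in blue and IVF in orange. Points are single ovaries and the black bars the mean and SD. IVF ovaries lie below all Natural ovaries at E18.5 (55.4 to 91.0 against 113 to 164) and at 39 weeks (244 to 449 against 500.3 to 682), and the groups overlap at 12 weeks.

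The IVF difference in Igfbp7 changed between ages when all 29 ovaries were fitted together. It was 1.18 higher on the log2 scale at 12 weeks than at E18.5 (SE 0.24, edgeR adjusted p = 0.039), in a contrast that called 0.314% of 19724 genes (0.274% higher, 0.0406% lower), and 1 of the 10 members. It was lower by 0.89 at 39 than at 12 weeks (log2 difference -0.89, SE 0.23, edgeR adjusted p = 0.04), in a contrast that called 2.71% of genes (1.96% higher, 0.75% lower) and again 1 of the 10 members. Both contrasts share the 12-week ovaries, in which the oviduct and epithelium markers also separated the groups. Each call was close to the threshold, and with libraries scaled by total counts alone, in place of the TMM scaling that takes most genes as equal, the first was lost (1.13, edgeR adjusted p = 0.0611), in a fit that called 1 gene, while the second held (-0.90, edgeR adjusted p = 0.0392). Leaving out 1 ovary at a time ended the first in 9 of 29 edgeR fits (highest adjusted p 0.148, without E18.5 Natural replicate 4 or IVF replicate 2 or 4, 12-week Natural replicate 1, 3 or 4 or IVF replicate 1 or 3, or 39-week Natural replicate 5). It ended the second in 11 of 29 (highest adjusted p 0.101, without 12-week Natural replicate 1, 3 or 4 or IVF replicate 1, 3 or 5, or 39-week Natural replicate 1, 3, 4 or 5 or IVF replicate 1), while the size stayed within 1.05 to 1.33 and within -1.04 to -0.77. From E18.5 to 39 weeks the IVF difference in Igfbp7 moved by 0.28 (SE 0.23, edgeR adjusted p = 0.453). No member was called in that contrast by edgeR or DESeq2, against 7.95% of genes by edgeR (5.1% higher, 2.85% lower, or 3.12% and 3.3% with total counts alone), and 2 members, Igfbp2 (0.71, edgeR adjusted p = 0.109) and Igfbp5 (0.61, edgeR adjusted p = 0.184), had an unadjusted p below 0.05, as had 25.4% of all genes.

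Igfbp7 lies on the minus strand of chromosome 5 (77349240 to 77408041, GRCm38, GENCODE M21, protein coding). Igfbp2 (plus strand, 72824503 to 72852474) and Igfbp5 (minus strand, 72857932 to 72874884) are neighbours on chromosome 1 whose ends face each other across 5457 bases. The other members lie, in GRCm38, at chr10:87858265-87937042 (Igf1), chr7:67952827-68233668 (Igf1r), chr8:3122061-3279617 (Insr), chr1:82233101-82291416 (Irs1), chr8:10984681-11008458 (Irs2), chr11:99041244-99054392 (Igfbp4) and chr4:65124174-65357509 (Pappa), all protein coding genes whose exons were counted together. The promoters of Igfbp7, Igfbp5 and Igfbp2 are shown because Igfbp2 and Igfbp5 fell and Igfbp7 rose in the ovary from E18.5 to 12 weeks. RefSeq promoter windows of 300 bases (GRCm38.p6) were found for 8 of the 10 genes, all but Insr and Pappa, and capitals mark motifs found on either strand. The GC box was searched as the letters GGGCGG on both strands of each window. For the E-box the letters were CACGTG in the same windows, where motifs were allowed to overlap. The TATA box was searched as TATAAA in the same way. The windows are chr5:77407996-77408295 (minus strand) for Igfbp7, chr1:72874816-72875115 (minus strand) for Igfbp5 and chr1:72824230-72824529 (plus strand), the first of a pair of entries, for Igfbp2.
Igfbp7: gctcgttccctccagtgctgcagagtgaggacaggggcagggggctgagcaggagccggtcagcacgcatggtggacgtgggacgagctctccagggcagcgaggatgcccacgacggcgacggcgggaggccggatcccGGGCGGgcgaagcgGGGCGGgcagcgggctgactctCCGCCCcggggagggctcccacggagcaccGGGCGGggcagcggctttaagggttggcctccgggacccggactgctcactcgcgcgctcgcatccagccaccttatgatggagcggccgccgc
Igfbp5: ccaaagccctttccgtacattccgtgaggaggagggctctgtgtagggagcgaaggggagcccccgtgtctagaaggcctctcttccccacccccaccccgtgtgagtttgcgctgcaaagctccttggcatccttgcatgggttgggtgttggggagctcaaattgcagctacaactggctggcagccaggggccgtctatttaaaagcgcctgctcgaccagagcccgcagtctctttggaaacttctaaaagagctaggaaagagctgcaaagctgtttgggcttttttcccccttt
Igfbp2: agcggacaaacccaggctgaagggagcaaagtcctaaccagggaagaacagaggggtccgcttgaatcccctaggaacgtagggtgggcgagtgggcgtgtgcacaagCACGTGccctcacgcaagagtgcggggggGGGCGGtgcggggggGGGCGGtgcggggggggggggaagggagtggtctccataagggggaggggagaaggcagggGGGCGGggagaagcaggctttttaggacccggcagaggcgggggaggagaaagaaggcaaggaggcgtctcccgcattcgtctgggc
The Igfbp7 window held 4 GC boxes and was 73.3% G and C, the Igfbp2 window held 3 GC boxes and 1 E-box at 67.0%, and the Igfbp5 window held none of these letters at 56.3%. Of all 32851 promoter windows 35.7% held a GC box, 7.15% an E-box and 13.6% a TATA box. A match to these letters is a description and does not show that a factor binds there.

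Among the other 9 members at E18.5, none passed the test, and their log2 fold changes lay between -0.33 and 0.43. Igf1 was at 630.0, 304, 339 and 381 CPM in Natural and at 361, 547, 432, 492, 472 and 418 CPM in IVF ovaries, with Natural replicate 1 above every IVF ovary and the other Natural ovaries at the low end. Igf1r ranged from 255 to 369 CPM in Natural and from 296 to 509.8 CPM in IVF, and Insr from 77.4 to 103 and from 89.8 to 119 CPM. The adaptor gene Irs2 was at 28.6, 16.6, 14.8 and 11.9 CPM in Natural and at 23.0, 25.8, 26.9, 19.8, 23.6 and 26.5 CPM in IVF ovaries (log2 fold change 0.43, SE 0.21, edgeR adjusted p = 0.233). Natural replicate 1 was the highest of all 10 for Irs2, and without it the difference passed the test (log2 fold change 0.75, edgeR adjusted p = 0.0123). Igfbp5, the most abundant binding protein gene at this age, was at 4479.5, 2187, 2413 and 2425 CPM in Natural and between 3075 and 4033 CPM in IVF ovaries (log2 fold change 0.28, SE 0.18, edgeR adjusted p = 0.373). Here too the difference passed without Natural replicate 1 (0.58, edgeR adjusted p = 0.00984), so that 3 members were called without that ovary. Igfbp2 was at 223, 243, 299 and 176 CPM in Natural and at 154 to 209.7 CPM in IVF (log2 fold change -0.33, SE 0.14, edgeR adjusted p = 0.183). Irs1, Igfbp4 and Pappa had log2 fold changes of 0.01, -0.06 and -0.19, each within 1 SE of 0.

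At 12 weeks no member passed the edgeR test, with 0 of 10 also at an unadjusted p below 0.05 (14.4% of all genes) and 0 of 10 by DESeq2, in a comparison that called 0.00567% of 17628 genes. Igf1 was at 136, 176, 157 and 163 CPM in Natural and at 139, 157, 253, 129.7 and 103 CPM in IVF ovaries, a log2 fold change of -0.02 (SE 0.22). Igf1r (0.04, SE 0.11) and Irs2 (-0.03, SE 0.23) were as close to 0, and the median of the 10 members was 0.02 beside 0.01 for all genes tested. Pappa was the member farthest from 0, at 5.30, 4.68, 10.8 and 6.31 CPM in Natural and at 4.51, 4.42, 1.84, 7.43 and 3.83 CPM in IVF (log2 fold change -0.67, SE 0.38, edgeR adjusted p = 0.434). No member had groups that did not overlap, against 6.08% of all genes tested.

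At 39 weeks no member passed the edgeR test, but 5 of the 10 had an unadjusted p below 0.05, as had 19.2% of all genes tested, and DESeq2 called 2 of them, Igfbp5 and Igfbp7. The edgeR comparison called 0.262% of 17186 genes (0.0582% higher, 0.204% lower), and the median log2 fold change was 0.13 for the 10 members and 0.03 for all genes tested. Igfbp5 was at 309, 456, 412, 318 and 353 CPM in Natural and at 845, 623, 408, 761 and 689 CPM in IVF ovaries. Only IVF replicate 3 lay among the Natural values, and the log2 fold change was 0.85 (SE 0.19, edgeR adjusted p = 0.0861, DESeq2 adjusted p = 0.00276). The Igfbp5 change from 12 to 39 weeks was higher in IVF than in Natural by 1.00 on the log2 scale (SE 0.29), which missed the threshold in the edgeR fit (adjusted p = 0.0581) and passed it in DESeq2 (adjusted p = 0.0214).

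The ligand gene Igf1 was at 129.7, 166, 172, 209.9 and 133 CPM in Natural and at 92.8, 106, 98.1, 118 and 161 CPM in IVF ovaries at 39 weeks, so that 4 of the 5 IVF ovaries were below all Natural ones (log2 fold change -0.49, SE 0.18, edgeR adjusted p = 0.188). The adaptor gene Irs1 was at 75.3, 121, 103, 97.2 and 101 CPM in Natural and at 107, 191, 121, 213 and 122 CPM in IVF (0.60, SE 0.21, edgeR adjusted p = 0.174), with IVF replicates 2 and 4 far above the rest. Igfbp2 was at 55.4 to 78.5 CPM in Natural and at 73.7 to 107 CPM in IVF (0.37, SE 0.13, edgeR adjusted p = 0.188). IVF replicates 2 and 4 were also the highest in summed granulosa markers (3703 and 3404 CPM), which ranged from 722 to 1975 CPM in Natural and from 1267 to 3703 CPM in IVF. Luteal markers ranged from 2093 to 6047 CPM in Natural and from 553 to 4805 CPM in IVF, and endothelial markers from 299 to 415 CPM and from 196 to 317 CPM. The part of these cell type differences in the member values was not tested.

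Igfbp4 at 39 weeks was at 1612, 1124, 699.96, 1294 and 621 CPM in Natural and at 1158.5, 408, 762, 506 and 626 CPM in IVF ovaries, a wide spread in both groups (log2 fold change -0.63, SE 0.33, edgeR adjusted p = 0.32). Pappa was at 4.602, 12.4, 17.7, 4.82 and 27.9 CPM in Natural and at 8.71, 6.82, 21.8, 10.9 and 67.8 CPM in IVF. Its log2 fold change of 0.78 (SE 0.71) rested on IVF replicate 5 and turned to -0.17 without it. Insr in both groups was highest in replicate 5, at 176 CPM in Natural and 167 CPM in IVF, and neither receptor gene had a log2 fold change farther from 0 than -0.15.

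**Figure D3:**
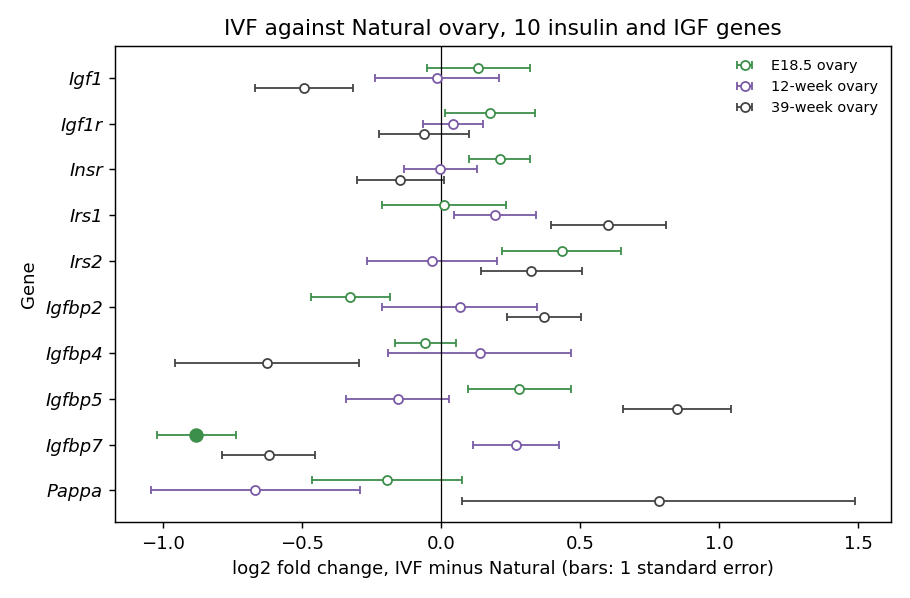
Log2 fold change of each of the 10 genes, IVF minus Natural, at the 3 ovary ages (colours), with bars of 1 standard error from edgeR; a filled point passed the adjusted p threshold of 0.05. The filled point is Igfbp7 at E18.5 (-0.88), and Igfbp5 (0.85) and Igfbp7 (-0.62) at 39 weeks are the open points farthest from 0 relative to their bars.

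Between fetal and adult ovaries the members moved in both directions. From E18.5 to 12 weeks 6 members were called in Natural and 7 in IVF ovaries. The contrasts called 49.7% (25.3% higher, 24.3% lower) and 59% (30.8% higher, 28.2% lower) of 19724 genes. Of the 10 members, 10% were called higher and 50% lower in Natural, and 10% and 60% in IVF. In both groups the members' share called lower was above that of all genes and the share called higher was below it. Whether these shares differ was not tested. Igfbp5 fell by 2.16 on the log2 scale in Natural (SE 0.24) and by 2.56 in IVF (SE 0.21). Pappa fell by 1.89 and 2.33, Igfbp2 by 1.44 and 1.03, Igf1 by 1.32 and 1.43, and Irs2 by 0.79 and 1.21. Igf1r fell by 0.47 in IVF ovaries (edgeR adjusted p = 0.0101) and had a log2 change of -0.37 in Natural (edgeR adjusted p = 0.0855), and these changes did not differ by the test (interaction -0.10, SE 0.23). Igfbp7 was the member that rose, by 1.88 in Natural (SE 0.18) and by 3.06 in IVF (SE 0.16). Insr, Irs1 and Igfbp4 passed in neither group. The Natural calls of Irs2 and Pappa were lost without E18.5 Natural replicate 1, at -0.41 (edgeR adjusted p = 0.129) and -1.37 (edgeR adjusted p = 0.0692), and the median log2 change was -0.67 (Natural) and -0.75 (IVF) for the 10 members and 0.01 in each group for all genes. Cell type markers moved over the same step. In Natural ovaries summed stroma markers were between 13111 and 21877 CPM at E18.5 and between 3249 and 5165 CPM at 12 weeks, theca markers between 13.3 and 40.5 and between 8046 and 14846 CPM, granulosa markers between 165 and 307 and between 1357 and 2009.8 CPM, and endothelial markers between 345 and 519 and between 214 and 265 CPM. IVF ovaries moved alike for stroma (13683 to 20791, then 2914 to 6620 CPM) and theca markers (17.2 to 30.0, then 7449 to 19881 CPM). The part of these differences in the members' changes was not tested. The theca list (Cyp17a1, Cyp11a1, Hsd3b1 and Insl3) is not particular to theca cells. It also summed to 17200 to 25475 CPM in Natural and 10815 to 29928 CPM in IVF libraries of 12-week cumulus cells.

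From 12 to 39 weeks 5 members were called in Natural ovaries and 2 in IVF ovaries, where the contrasts called 21.6% (10% higher, 11.6% lower) and 6.19% (4.23% higher, 1.96% lower) of genes. Irs2 rose in both, by 0.78 (SE 0.24) in Natural and 1.14 (SE 0.22) in IVF. Insr (0.56, SE 0.15), Igf1r (0.52, SE 0.17) and Igfbp4 (1.10, SE 0.31) rose in Natural ovaries, and Igfbp5 fell by 0.61 (SE 0.21). In IVF ovaries Insr, Igf1r, Igfbp4 and Igfbp5 had log2 changes of 0.42, 0.41, 0.31 and 0.39, none of which passed the edgeR test, and edgeR's test of the difference between the groups passed for none of these 4 genes, while DESeq2's passed for Igfbp5 alone. Pappa rose by 2.59 in IVF (SE 0.57, edgeR adjusted p = 0.00966), or by 1.63 without 39-week IVF replicate 5 (edgeR adjusted p = 0.0478), and had a log2 change of 1.11 in Natural (edgeR adjusted p = 0.171), again without a tested difference (1.48, SE 0.78, edgeR adjusted p = 0.295). Without 39-week Natural replicate 5, the ovary labelled 39 and 40 weeks, 3 Natural members were called, and Igf1r (0.43, edgeR adjusted p = 0.0917) and Igfbp5 (-0.55, edgeR adjusted p = 0.0996) were not among them. The count was also 3 without 39-week Natural replicate 3 or 12-week Natural replicate 2 or 3, and 2 without 12-week Natural replicate 1. Scaling by total counts alone put the median of all genes at -0.12 in Natural and -0.10 in IVF, with 6.37% called higher and 15.2% lower in Natural and 1.36% and 3.53% in IVF. The Natural call of Igf1r was then lost (0.39, edgeR adjusted p = 0.0728), and Igfbp7 was called as lower in IVF (-0.60, edgeR adjusted p = 0.0292; -0.48 with TMM). Over the same step the summed oviduct and epithelium markers of Natural ovaries were between 3487 and 7637 CPM at 12 weeks and between 32.3 and 214 CPM at 39 weeks, and their part in these changes was not tested. The age contrasts join tables prepared as separate experiments, so age and table cannot be told apart.

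**Figure D4:**
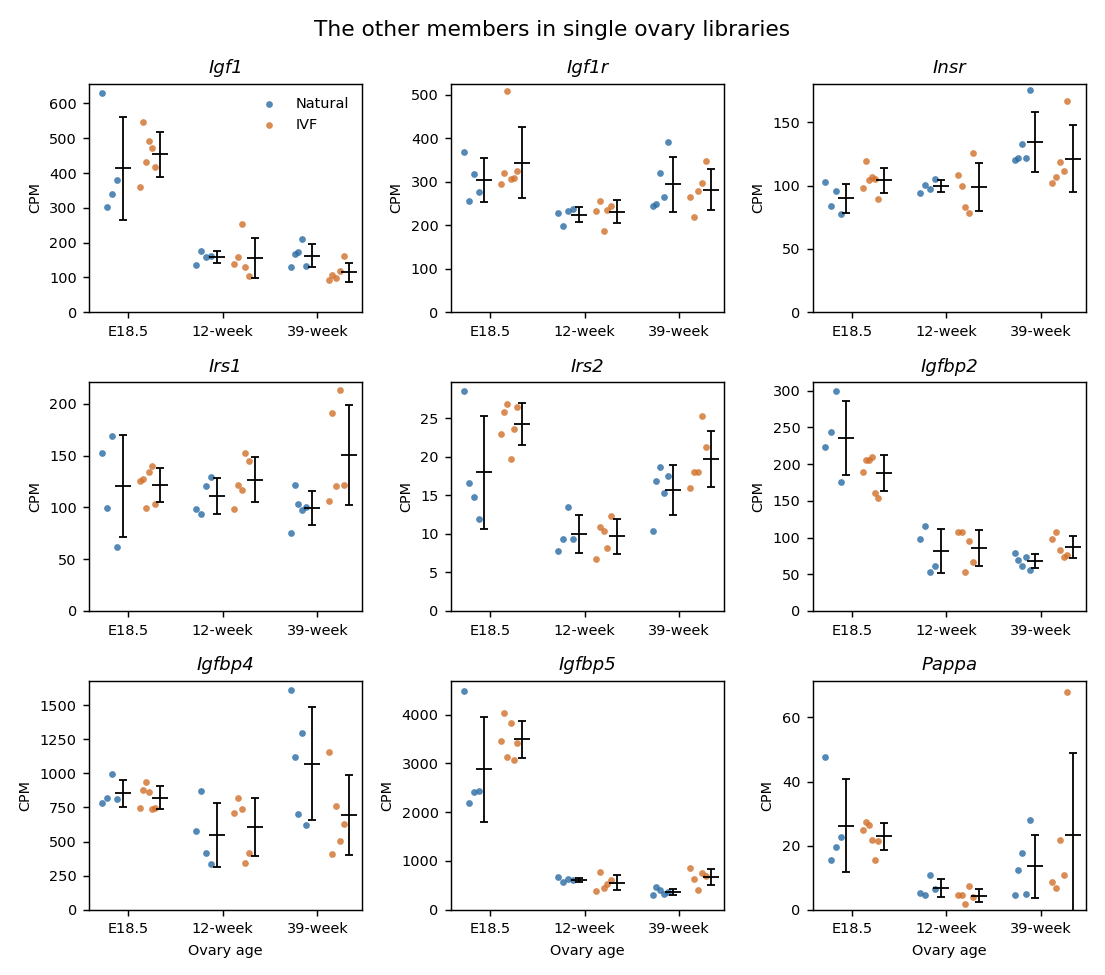
Level (CPM, vertical axes from 0) of the 9 members other than Igfbp7 in each ovary at 3 ages, with Natural in blue and IVF in orange; black bars show mean and SD, and the lower SD bar of Pappa in 39-week IVF ovaries is clipped at 0. Igf1, Igfbp2 and Igfbp5 drop from E18.5 to the adult ages in both groups, and at 39 weeks 4 of 5 IVF ovaries lie above all Natural ovaries for Igfbp5.

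In PGCs most members were near the limit of detection, and 4 of the 10, Igf1r, Insr, Igfbp2 and Igfbp4, had enough reads to be tested. None was called by edgeR or DESeq2 and none had an unadjusted p below 0.05, in a comparison that called 0% of 12763 genes. Igf1r was at 10.6, 46.9, 5.87 and 4.83 CPM in Natural and at 11.8, 30.6, 15.5, 8.22 and 20.9 CPM in IVF libraries, a log2 difference far within its SE of 0.63. Insr was at 4.18, 29.1, 5.34 and 0 CPM in Natural and at 5.62, 22.8, 11.8, 6.17 and 10.5 CPM in IVF. Natural replicate 2 was the highest library for both receptor genes and for Igfbp2 (25.3 CPM against 2.64 to 7.12 CPM in the other Natural libraries). Igfbp7 had 2 reads in the 4 Natural libraries together and 11 in the 5 IVF libraries.

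In 12-week oocytes, with counts summed over the oocytes of 5 library sets per group, 8 of the 10 members were tested and none was called by edgeR or DESeq2, with none at an unadjusted p below 0.05 (0.0277% of 14444 genes called, 0.0208% higher and 0.00692% lower). Igf1r, the member with the most reads, was at 6.95, 7.41, 11.5, 8.61 and 10.8 CPM in Natural and at 5.64, 9.26, 9.35, 7.80 and 7.22 CPM in IVF sets (log2 fold change -0.20, SE 0.21). Igf1 was at 0.593, 0.460, 0.873, 1.95 and 1.43 CPM in Natural and at 1.84, 2.10, 1.39, 3.90 and 0.909 CPM in IVF sets (0.93, SE 0.48, edgeR adjusted p = 0.776). Irs2 and Pappa were too low to test, with at most 4 and 6 reads in a Natural set and at most 40 and 13 in an IVF set.

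Between PGCs and 12-week oocytes 4 members were called in Natural, where 76.1% of 17368 genes were called (38.9% higher, 37.2% lower), and 4 in IVF, with 76.1% as well (40.8% higher, 35.3% lower). These contrasts join tables of very different composition, and the direction of several members depended on the scaling. With total counts alone in place of TMM, an alternative added after seeing the data, the median of all genes was -1.96 in Natural and -1.67 in IVF (-0.09 and 0.06 with TMM), and 22.3% of genes were called higher and 58.1% lower in Natural. Igfbp2 and Igfbp7 passed in the same direction under both scalings and in both groups. Igfbp7 was too low to test within PGCs and entered this fit through the oocyte sets, where it was high. Its passing under both scalings is therefore no separate support. Of the other members called here, Igf1, Igfbp5 and Irs2 were also too low to test within PGCs. The part of cumulus RNA in the oocyte levels was not tested. With TMM, Igfbp2 was lower in oocytes by 2.93 on the log2 scale in Natural (SE 0.63) and by 3.39 in IVF (SE 0.64). Igf1 was called as higher with TMM, by 2.95 (SE 0.94) and 3.10 (SE 0.81), but with total counts it was at 1.26 in Natural (edgeR adjusted p = 0.22) and 1.32 in IVF (edgeR adjusted p = 0.141). Igf1r, not called under either, was at 0.84 in Natural with TMM and at -1.19 with total counts. Insr was called as lower with total counts alone, at -2.73 in Natural (edgeR adjusted p = 0.00743) and -2.66 in IVF (edgeR adjusted p = 0.00717). With TMM it was not called in either group. Pappa, too low to test within PGCs, was called as lower with total counts in Natural (-3.91, edgeR adjusted p = 0.0114) and not in IVF. Igfbp7 was called as higher in oocytes in both groups, from 0 to 0.491 CPM in Natural PGC libraries to 0.421 to 1.18 CPM in Natural oocyte sets, and by 3.86 on the log2 scale in IVF (SE 0.91; 2.10 with total counts, edgeR adjusted p = 0.0482). Irs2 was called as lower in Natural (-4.48, SE 1.34) but was at 0.05 in IVF (SE 1.12), and 116 of the 125 Natural PGC reads of Irs2 came from replicate 2. Igfbp5 was called in IVF with TMM (3.46, SE 0.87) but not with total counts (1.77, edgeR adjusted p = 0.0718), and it stood at 0.24 in Natural (SE 0.81). Differences between the groups were not tested. The libraries of these cell types were made as separate experiments.

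In 12-week cumulus cells 8 of the 10 members were tested between IVF and Natural, and none was called by edgeR or DESeq2 or had an unadjusted p below 0.05 (0.00903% of 11080 genes called). Igf1r was at 74.5, 84.7, 50.5, 65.5 and 60.8 CPM in Natural and at 96.6, 73.5, 83.3, 62.9 and 74.3 CPM in IVF (log2 fold change 0.23, SE 0.18). Igfbp4 was at 291, 281, 101, 94.6 and 69.9 CPM in Natural and at 52.5, 70.7, 97.3, 239 and 186 CPM in IVF, and in each group the 2 high libraries belonged to the same one of the 2 library naming series, which the fit held as a covariate (-0.33, SE 0.18, edgeR adjusted p = 0.863). Irs2 was at 5.29, 5.56, 3.83, 3.11 and 3.49 CPM in Natural and at 3.15, 1.27, 4.80, 1.31 and 1.62 CPM in IVF (-0.88, SE 0.51, edgeR adjusted p = 0.863). The count of called members was 0 without the library named 126_2 too.

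Most of these genes were at higher levels in cumulus cells than in oocytes. In Natural samples 9 of 10 members were called as higher in cumulus cells, and in IVF samples 8 of 10. Of 14719 genes, 39.5% were called as higher and 84.8% in either direction in Natural, and 38.2% and 84.1% in IVF. Irs2 and Pappa had too few reads to be tested within oocyte sets and entered this fit through the cumulus libraries, where their levels were higher. Their direction was thus set by the filter, and the counts of members are not set against these shares. The median log2 difference of the 10 members was 3.57 in Natural and 2.66 in IVF, and of all genes -0.27 and -0.38. In Natural samples the log2 differences of the members called were 5.94 for Irs2 (SE 0.97), 5.68 for Igfbp4 (SE 0.67), 4.62 for Igfbp7 (SE 0.45), 4.49 for Pappa (SE 1.05), 3.76 for Irs1 (SE 0.87), 3.38 for Igfbp2 (SE 0.66), 2.93 for Insr (SE 0.37), 2.92 for Igf1 (SE 0.43) and 2.26 for Igf1r (SE 0.20). For Igfbp4 the Natural cumulus libraries (69.9 to 291 CPM) all lay above the Natural oocyte sets (0.436 to 4.92 CPM). Irs2 and Pappa rested on 8 reads each in the Natural oocyte sets, and in IVF their values were 1.75 (edgeR adjusted p = 0.0489) and 1.96 (edgeR adjusted p = 0.0588). Pappa and Igfbp5 were also too low to be tested within cumulus cells, at 0 to 18 and 0 to 12 reads per Natural library. Igfbp5 was the exception to the higher levels in cumulus cells, with that limit. It was at 0 to 2.88 CPM in Natural cumulus and 0.126 to 1.28 CPM in Natural oocyte sets (-0.49, SE 0.88, and 0.25 with total counts alone). That scaling put the median of all genes at 0.41 in Natural and 0.19 in IVF and kept the calls of the other 9 members in Natural. The oocytes were single cells summed per set and the cumulus libraries pools of cells. Several cumulus libraries shared a set name with an oocyte set. This fit did not pair them and did not hold the library naming series as a covariate.

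**Figure D5:**
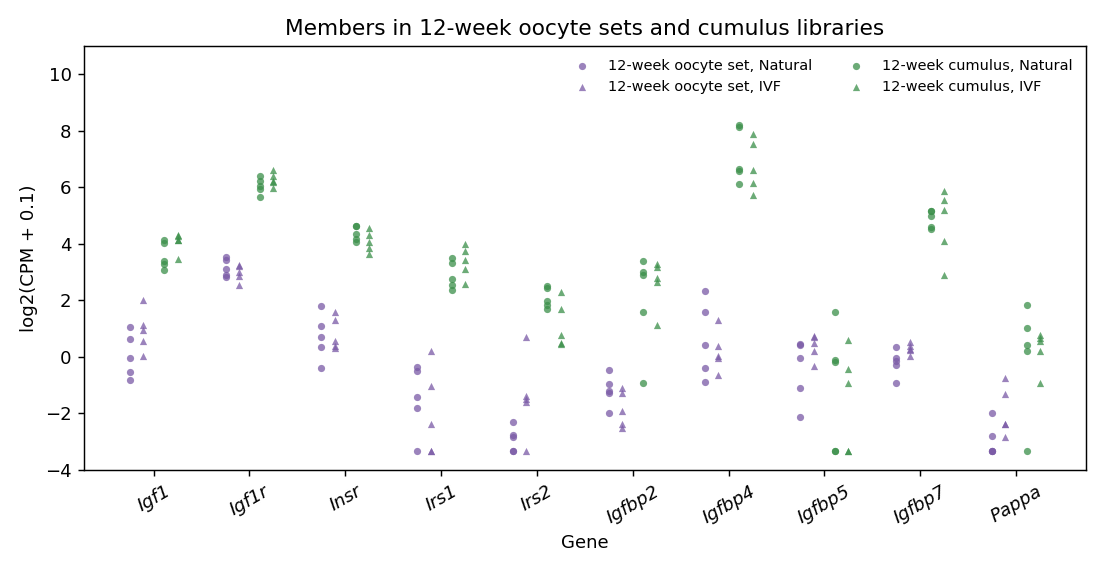
Level of each of the 10 genes as log2(CPM + 0.1) in 12-week oocyte sets (purple) and cumulus libraries (green), with circles for Natural and triangles for IVF; each point is 1 set or library, and points at the bottom of the axis are at 0. For Igf1r, Igfbp4 and Igfbp7 every cumulus library lies above every oocyte set, and for Igfbp5 they overlap.

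For 39-week oocytes no donor was named, so each group was treated as 1 sample without a test, and intervals cover counting error only. Of all genes with at least 20 reads in the sums and 1 CPM in either of them, 30.1% of 12319 differed by at least 2-fold. Igf1r and Insr reached 1 CPM in both groups, Igfbp4 in Natural alone and Igfbp5 in IVF alone. Igfbp4 and Igfbp5 thus met this limit only through the group where they were high, and no count of members was set against that share. Igf1r had 903 reads in Natural (8.37 CPM, 95% Poisson interval 7.83 to 8.93) and 447 in IVF (2.50 CPM, 2.27 to 2.74), a log2 ratio of -1.75. Oocyte 9 alone gave 512 of the Natural reads, and the log2 ratio was -0.60 without the most deeply sequenced oocyte of each group. Between medians over single oocytes it was -0.10 when these too were scaled by total counts alone. With TMM scaling the medians were 4.23 CPM in Natural and 3.14 CPM in IVF. Insr had 160 reads in Natural (1.48 CPM, 1.26 to 1.73) and 536 in IVF (2.99 CPM, 2.74 to 3.26), and IVF oocytes 3 and 10 gave 126 and 225 of them. Igfbp4 had 214 reads in Natural, in 6 of 9 oocytes, and 84 in IVF, in 4 of 10 oocytes. Igfbp5 had 71 reads in Natural, of which 63 were in oocyte 4, and 299 in IVF, spread over 8 of 10 oocytes, with a log2 ratio of 1.34 that was 0.67 without the most deeply sequenced oocyte of each group. In single 39-week oocytes cumulus markers summed to 0 to 38.7 CPM in Natural and 0 to 49.6 CPM in IVF. Erythroid markers summed to 116 to 22063 and 3.04 to 31342 CPM, and oocyte markers to 2330 to 46286 and 20564 to 41385 CPM. The part of RNA from other cells in these member levels was not tested.

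Of 51 other genes of the pathway, grouped by role, 47 could be tested at E18.5, where 1 passed as higher and 3 as lower in IVF. These calls were 2.13% and 6.38% of the 47 genes, beside 2.67% and 2.75% of all genes tested. An unadjusted p below 0.05 was found for 13 of the 47 genes (27.7%), beside 24.1% of all genes. The median log2 fold change of the 47 genes was 0.03, beside 0.07 for the 10 members. Igfbp6, a binding protein gene with a preference for IGF2, was at 86.7, 63.5, 60.4 and 75.5 CPM in Natural and at 35.5, 39.3, 52.5, 42.0, 35.0 and 41.9 CPM in IVF ovaries (-0.80, SE 0.14, edgeR adjusted p = 0.0129). Mtor, the kinase at the core of the mTOR complexes, was at 74.8 to 83.5 CPM in Natural and at 91.6 to 121 CPM in IVF (0.44, SE 0.10, edgeR adjusted p = 0.0279). Rheb, the small GTPase that switches mTOR complex 1 on, was at 47.6 to 53.0 CPM and at 31.4 to 41.1 CPM (-0.42, SE 0.11, edgeR adjusted p = 0.0361). Eif4ebp1, a translation repressor that mTOR inactivates, was at 38.7 to 55.3 CPM and at 25.6 to 33.5 CPM (-0.57, SE 0.13, edgeR adjusted p = 0.0247). In none of these 4 genes did the groups overlap, and 8.61% of all genes tested at E18.5 had groups that did not overlap. The 4 genes were named because they passed the test, so the lack of overlap adds no support. No ligand, receptor, adaptor, PI3K or AKT gene of the list was called at E18.5. In the 12-week and 39-week ovaries, PGCs, oocyte sets and cumulus cells, with 45, 45, 38, 41 and 37 of the 51 genes tested, edgeR called none. An unadjusted p below 0.05 was found for 5, 7, 3, 1 and 1 of them, or 11.1%, 15.6%, 7.89%, 2.44% and 2.7%, beside 14.4%, 19.2%, 2.73%, 6.67% and 5.97% of all genes. With age, 12 of 50 tested pathway genes (24%) rose and 23 (46%) fell from E18.5 to 12 weeks in Natural ovaries, beside 25.3% and 24.3% of all genes, and 13 (26%) rose and 29 (58%) fell in IVF, beside 30.8% and 28.2%. From 12 to 39 weeks 7 rose and 4 fell in Natural (14% and 8%, beside 10% and 11.6%) and 8 rose and 2 fell in IVF (16% and 4%, beside 4.23% and 1.96%). Between cell types, 20 of 46 (43.5%) were higher and 12 (26.1%) lower in Natural oocyte sets than in PGCs, beside 38.9% and 37.2%, and 15 of 39 (38.5%) were higher and 18 (46.2%) lower in Natural cumulus cells than in oocyte sets, beside 39.5% and 45.3%.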

How the data were processed

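Ovary, PGC, oocyte and cumulus RNA was sequenced by the authors, who deposited raw counts of reads per gene name for mm10. Their processing notes name Trimmomatic (version 0.32), STAR (version 2.3.0e), featureCounts (version 1.5.0) and DESeq2. Whether strand was used in counting is not given in the sources used here. Between 66.7% and 79.1% of counts from 1 to 20 were even in each table, as when both mates of a pair are counted, so counting intervals are too narrow. No 2 libraries of a group were alike within sampling noise. The labels and methods name replicates as different mice for ovaries. For other libraries p-values may measure technical spread only.

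The 10 members and the lists were chosen with earlier results of these data known. Each IVF and Natural comparison was fitted in R (version 4.3.3) with edgeR (version 4.0.16), with TMM scaling, the default expression filter, two-sided quasi-likelihood tests and Benjamini-Hochberg adjusted p below 0.05 over all genes tested. Levels are CPM, scaled by TMM within a table, and the sums over 39-week oocytes are scaled by total counts alone. Counts of 12-week oocytes were summed per library set named in the library names, the cumulus fit held the library naming series as a covariate, and the 29 ovaries were fitted together for age and interaction. Genes named were the 10 members, up to 6 called pathway genes per comparison, and 2 genes of like pattern per member among those reaching 10 CPM, of which 1 is not reported here. Exon lengths came from GENCODE M21. Alternatives were DESeq2 (version 1.42.0), RLE factors, no filter, each library left out, the replicate number as a block and other units of replication, and, added after seeing the data, total counts alone and each ovary left out for contrasts across tables. The fits were tested on simulated data. Figures were drawn with matplotlib (version 3.10.9). The 39-week cumulus cells and other assays were not analysed here. Replicate numbers did not pair the samples.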

Additional observations from a re-analysis of the deposited data

Results flagged for a closer look

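Single libraries stood apart from their group in 29 of 140 groups of 4 to 10 libraries, by a gap to the next value that is large for the group's range. The chance rate of about 1 in 20 holds for independent, normally spread values. Several of these groups held few reads, and the genes share libraries, so the 29 groups cannot be set against that rate. In E18.5 ovaries the libraries that stood apart were Igf1r in IVF replicate 3 (509.8 CPM), Igfbp4 in Natural replicate 3 (999 CPM), Igfbp5 in Natural replicate 1 (4479.5 CPM) and Igfbp7 in Natural replicate 4 (164 CPM). In 39-week ovaries they were Insr in Natural replicate 5 (176 CPM) and IVF replicate 5 (167 CPM), Igfbp7 in Natural replicate 1 (682 CPM) and Pappa in IVF replicate 5 (67.8 CPM).

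PGC Natural replicate 2 stood apart for Igf1r (46.9 CPM), Irs2 (11.3 CPM), Igfbp4 (10.1 CPM) and Igfbp5 (6.43 CPM), and Igfbp7 did so at 0.491 CPM in PGC Natural replicate 1 and 0.926 CPM in IVF replicate 5. Among 12-week oocyte sets, Irs2 in IVF set 126_4 (1.54 CPM) and Pappa in Natural set 35_3 (0.153 CPM) stood apart, and in cumulus cells Igf1 in IVF replicate 2 (low, at 11.0 CPM) and Igfbp5 in Natural replicate 1 (2.88 CPM). In 39-week oocytes IVF oocyte 7, the library with the fewest reads, was high for Igf1 (2.51 CPM), Igf1r (15.6 CPM), Irs1 (3.90 CPM), Irs2 (0.558 CPM) and Igfbp7 (5.58 CPM). Natural oocyte 4 was high for Irs1 (7.19 CPM), Igfbp5 (8.71 CPM) and Pappa (7.74 CPM), Natural oocyte 3 for Irs2 (1.54 CPM), and Igfbp2 was found in Natural oocyte 8 (0.289 CPM) and IVF oocyte 6 (0.265 CPM) alone.

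The IVF difference changed between ovary ages, by edgeR's interaction test, for Igfbp7 from E18.5 to 12 weeks (log2 difference 1.18) and from 12 to 39 weeks (-0.89). Of the other pathway genes it changed for Stc2, which encodes an inhibitor of pappalysin, from 12 to 39 weeks (2.23, edgeR adjusted p = 0.0315) and from E18.5 to 39 weeks (1.70, edgeR adjusted p = 0.0407). From E18.5 to 39 weeks it also changed for Igfbp6 (1.34), Mtor (-0.54), Rictor (-0.84) and Sh2b1 (-0.36). From 12 to 39 weeks 2% of 50 tested pathway genes were called higher and 0% lower, beside 1.96% and 0.75% of all genes. From E18.5 to 39 weeks the shares were 4% and 6%, beside 5.1% and 2.85% of all genes. These contrasts share ovaries.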

How the results depend on the processing

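With all libraries kept, the counts of called members that moved by over 1.5 times were those at E18.5 (0 with the replicate block against 1), at 39 weeks (2 by DESeq2 against 0), for 39 minus 12 weeks in IVF (4 by DESeq2 against 2, with Igfbp7 and Insr added), for the change of the IVF difference from 12 to 39 weeks (2 by DESeq2 and 0 with no filter on low counts against 1) and for that from E18.5 to 12 weeks (0 with total counts alone against 1). Leaving out 1 library gave 1 to 3 called members at E18.5, 2 to 6 for 39 minus 12 weeks in Natural, 0 to 1 for the change of the IVF difference from E18.5 to 12 weeks, 0 to 2 for that from 12 to 39 weeks and 0 to 1 for that from E18.5 to 39 weeks (Igf1, edgeR adjusted p = 0.0468, without E18.5 Natural replicate 1). Igfbp7 at E18.5 passed in all 10 such fits (-0.97 to -0.75, edgeR adjusted p 0.00567 to 0.0329). With the replicate number as a block, 0 members were called at E18.5, and Igfbp7 was at -0.90 (edgeR adjusted p = 0.152). In no table did every pair of same-numbered samples correlate above 0.1, so the numbers were not taken to pair samples, and the block changed no other call. Pappa at 39 weeks turned to -0.17 without IVF replicate 5 and ranged up to 1.23 without Natural replicate 5, and Irs2 between PGCs and oocytes was at 0.045 in IVF. With total counts alone, an alternative added after seeing the data, Igf1r and Igfbp4 between Natural PGCs and oocytes turned to -1.19 and -1.04. The cause of these changes was not tested. In PGCs 6 and in 12-week oocytes 2 of the 10 members had too few reads to be tested.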
